A study of Mus musculus with 9 samples.

Results

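The leukocyte integrins and their adhesion partners were followed as 10 genes, which were taken by symbol: Itgam, Itgb2, Itgb2l, Itgb1, Itgb7, Itga4, Itga5, Itga6, Icam1 and Selplg. Each matched 1 of the 26770 gene rows, and all 10 were among the 15447 genes with enough counts to be tested. RNA sequencing had been done on monocytes from spleens of wild-type mice, in a study whose title concerns the olfactory receptor Olfr2 in monocytes and reperfusion injury of the heart. There were 3 groups of 3 libraries. Cells labelled LPS with octanal were primed with a low dose of lipopolysaccharide (LPS, a bacterial outer membrane component sensed by Toll-like receptor 4) and then given 20 µM octanal, an aldehyde ligand of Olfr2. Cells labelled LPS received 40 ng/ml of LPS for 5 hours. Untreated cells received the solvent DMSO at a dilution of 1 in 1000.

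The octanal exposure is given as 18 hours for the series, while labels of the samples give 18, 19 and 20 hours. DMSO is named for untreated samples only, as dilutions of 1 in 1000, 1001 and 1002. Equal time in culture is not stated for LPS and LPS with octanal cells, so octanal and a longer culture cannot be told apart. The labels give no hours for untreated cells. In comparisons with untreated cells, the agents therefore cannot be told apart from time in culture or from DMSO. Whether replicates are separate animals or cultures is not labelled, and the p-values therefore cover only the spread among these libraries, which may be technical. Total counts were 29594291 to 38388421 per library. Mitochondrial transcripts took 2.31 to 3.10% of the counts in LPS with octanal, 4.12 to 7.66% in LPS and 2.20 to 3.99% in untreated libraries.

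The labelled cell type was checked against monocyte and other markers, in CPM (counts scaled to a common library total). Csf1r, the receptor for the macrophage growth factor, averaged 379 CPM in LPS with octanal, 231 CPM in LPS and 402 CPM in untreated cells. Ly6c2, a surface protein of classical mouse monocytes, averaged 0.875 ± 0.217 CPM in LPS with octanal, 2.95 ± 4.29 CPM in LPS and 140 ± 125 CPM in untreated cells (SD, n = 3 each), with an SD near or above the mean in both LPS and untreated cells. Of the neutrophil markers, S100a8 averaged 2769 CPM in LPS with octanal, 744 CPM in LPS and 4155 CPM in untreated cells. The granule gene Ltf averaged 121 CPM in LPS with octanal, 11.3 CPM in LPS and 1798 CPM in untreated cells. T cell markers summed to 605 to 902 CPM in LPS with octanal, 990 to 1230 CPM in LPS and 120 to 568 CPM in untreated libraries. Markers of red (erythroid) cells summed to 358 to 660 CPM, 266 to 752 CPM and 750 to 1560.5 CPM in the same order. The libraries therefore held monocyte transcripts beside those that mark neutrophils, T cells and erythroid cells. Sums of the neutrophil and T cell markers are also given with the members and with the adhesion lists. In bulk samples such as these, fewer cells of a type and less RNA per cell cannot be told apart.

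An integrin is a pair of an alpha and a beta chain that spans the membrane and links a cell to a counter-receptor or to matrix. Circulating leukocytes keep integrins in a bent, inactive state. Selectins first let the cell roll, chemokine signals then straighten the integrin from inside, and the cell arrests and crawls out of the vessel. Beta 2 integrins are restricted to leukocytes, and Itgb2 (CD18) is shared by Itgam (CD11b), Itgal (CD11a), Itgax and Itgad. The pair of Itgam and Itgb2, known as Mac-1 or complement receptor 3, binds complement fragments, fibrinogen and Icam1. Itgb2l, also called pactolus, resembles Itgb2 and was described in mouse granulocytes. Itgb1 pairs with Itga4 to bind Vcam1, with Itga5 to bind fibronectin and with Itga6 to bind laminin, while Itgb7 pairs with Itga4 to bind Madcam1. Icam1 is the counter-receptor of beta 2 integrins, and Selplg (PSGL-1) is the ligand that selectins grip during rolling.

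The genes lie on several chromosomes of the GRCm38 build and are all annotated as protein coding in GENCODE M21. Itgam (ENSMUSG00000030786) is at chr7:128062640-128118491 on the plus strand, Itgb2 (ENSMUSG00000000290) at chr10:77530252-77565708 on the plus strand and Itgb2l (ENSMUSG00000000157) at chr16:96422288-96443619 on the minus strand. Itgb1 (ENSMUSG00000025809) is at chr8:128685654-128733200 on the plus strand and Itgb7 (ENSMUSG00000001281) at chr15:102215995-102231944 on the minus strand. Itga4 (ENSMUSG00000027009) is at chr2:79255426-79333123, and Itga6 (ENSMUSG00000027111) at chr2:71745616-71858416, both on the plus strand. Itga5 (ENSMUSG00000000555) is at chr15:103344286-103366763 on the minus strand, and Selplg (ENSMUSG00000048163) is at chr5:113818536-113832644 on the minus strand. Icam1 (ENSMUSG00000037405) is at chr9:21015985-21028817 on the plus strand.

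The promoters of 3 members are shown because their transcripts followed different courses over the groups: Icam1, which was higher in both groups given LPS, and Itgam and Itgb2l, which were lowest after LPS alone. Each window runs from 250 bases before to 50 bases after the annotated start, is read 5′ to 3′ on the gene's own strand and comes from RefSeq on GRCm38.p6. Distances are counted from the start that the window uses. For Icam1 that start lies upstream of the GENCODE gene start given above, and for Itgb2l slightly downstream of it. Capitals mark GGAAATTCC, a form of the NF-kappaB motif, or GAGGAA, the core of the motif of the myeloid factor PU.1, on either strand (TTCCTC is GAGGAA on the other strand). The windows are chr9:21015690-21015989 on the plus strand for Icam1, chr7:128062390-128062689 on the plus strand for Itgam and chr16:96443565-96443864 on the minus strand for Itgb2l.
Icam1: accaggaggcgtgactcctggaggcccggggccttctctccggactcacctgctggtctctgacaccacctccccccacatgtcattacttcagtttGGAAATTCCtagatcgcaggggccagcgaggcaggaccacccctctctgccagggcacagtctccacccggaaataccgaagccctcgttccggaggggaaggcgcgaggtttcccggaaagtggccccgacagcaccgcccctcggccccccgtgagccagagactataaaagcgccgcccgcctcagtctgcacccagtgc
Itgam: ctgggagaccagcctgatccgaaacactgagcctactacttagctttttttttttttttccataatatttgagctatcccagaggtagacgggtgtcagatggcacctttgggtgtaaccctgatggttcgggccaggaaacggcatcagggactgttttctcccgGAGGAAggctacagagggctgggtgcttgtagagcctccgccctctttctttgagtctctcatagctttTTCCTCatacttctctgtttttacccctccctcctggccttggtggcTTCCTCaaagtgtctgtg
Itgb2l: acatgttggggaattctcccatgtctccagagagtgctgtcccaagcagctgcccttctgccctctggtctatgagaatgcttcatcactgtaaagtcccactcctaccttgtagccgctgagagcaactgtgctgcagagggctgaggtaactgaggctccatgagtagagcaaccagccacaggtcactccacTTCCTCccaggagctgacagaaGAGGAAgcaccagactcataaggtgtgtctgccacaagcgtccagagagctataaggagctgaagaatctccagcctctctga

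Such windows were at hand for 7 of the 10 members, Itgb2, Itga6 and Selplg being the others. GGAAATTCC was found in the window of Icam1 alone among these 7, beginning 153 bases before the start, and in 104 of all 32851 promoters (0.317%). The related GGGACTTTC was in 0 of the 7 and in 116 of all promoters (0.353%). GAGGAA was in 5 of the 7 (Itgam, Itgb2l, Itgb1, Itgb7 and Itga5) and in 9289 of all promoters (28.3%). Itgam held it 3 times, at 84 and 15 bases before and 33 bases after the start, and Itgb2l held it at 55 and 33 bases before. The motifs do not overlap each other in these windows, and a match is a description of letters, not of binding.

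LPS cells were first compared with untreated cells. In LPS cells the Mac-1 genes and Itgb2l were lower, and Icam1, Itga4 and Itga6 were higher. These 6 of 10 members passed the edgeR test (adjusted p under 0.05 over all genes), 3 higher and 3 lower, where 32.8% of all tested genes passed, 15.2% higher and 17.6% lower. The median log2 fold change was -0.21 over the members and 0.01 over all genes. Libraries of LPS and untreated cells did not overlap for 8 members, 4 higher and 4 lower, against 51.5% of all genes (26.7% higher and 24.8% lower).

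Itgam had 415, 699 and 566 CPM in LPS cells, against 1855, 1497 and 3052 CPM in untreated cells. Every LPS library lay below every untreated library, with means of 560 ± 142 CPM in LPS and 2135 ± 814 CPM in untreated cells (SD, n = 3 each). The log2 fold change was -1.93 (SE 0.323, adjusted p = 0.00385), 3.81-fold lower in LPS cells. Its beta chain Itgb2 had 435, 613 and 539 CPM in LPS cells, against 1713, 1198 and 1816 CPM in untreated cells, again without overlap. The fitted log2 difference was -1.57 (SE 0.228, adjusted p = 0.00218).

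Itgb2l fell furthest. It had 1.13, 1.00 and 0.636 CPM in LPS cells, from 44, 32 and 23 counts, against 71.9, 40.6 and 73.8 CPM in untreated cells, from 2672, 1239 and 2083 counts. Every untreated library thus held at least 1239 counts, and every LPS library at most 44. The log2 fold change was -6.06 (SE 0.603, adjusted p = 0.000657), a 66.9-fold lower level that ranked 51 by size among the 15447 genes.

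The sums of several marker lists moved with these beta 2 genes. The 14 neutrophil markers summed to 1895 to 2347 CPM in LPS libraries, against 13997 to 27237 CPM in untreated libraries, and 13 of the 14 fell. The 8 classical monocyte markers summed to 1721 to 2903 CPM in LPS libraries, against 6155 to 15768 CPM in untreated libraries, and 5 of the 8 fell. The 10 macrophage markers summed to 455 to 749 CPM in LPS libraries, against 1511 to 2535 CPM in untreated libraries, and 6 fell. Positive log2 fold changes without a call were those of the macrophage markers Adgre1 (0.61) and Spic (0.48). The same held for the classical monocyte markers Cd14 (0.42) and Fcgr1 (0.18). Of 5 tested markers of eosinophils, basophils and mast cells 4 fell, with sums of 1.00 to 1.83 CPM in LPS libraries, against 15.6 to 23.5 CPM in untreated libraries, and the eosinophil peroxidase Epx was at 0 counts in LPS libraries. None of the neutrophil markers was at 0 counts in either group, and the part of these 4 lists in the lower Itgam, Itgb2 and Itgb2l was not tested. The 6 non-classical monocyte markers summed to 343 to 419 CPM in LPS libraries, against 191 to 258 CPM in untreated libraries. Of these 6, 1 rose (Spn) and 0 fell. Spn was the largest part of the sum, at 280 CPM in LPS and 131 CPM in untreated cells. Treml4 (0.05) and Nr4a1 (0.15) had log2 fold changes near 0. Cd300e (0.81) was positive, and Ace (-1.98) and Cx3cr1 (-0.68) were negative, all without a call.

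Icam1 had the smallest SE among the called members. It had 156, 143 and 166 CPM in LPS cells, against 77.0, 68.0 and 67.8 CPM in untreated cells. The groups were well apart, with means of 155 ± 11.7 CPM in LPS and 70.9 ± 5.27 CPM in untreated cells (SD, n = 3 each). The log2 fold change was 1.13 (SE 0.114, adjusted p = 0.000676), 2.19-fold higher in LPS cells.

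Itga4 had 428, 480 and 386 CPM in LPS cells, against 123, 248 and 197 CPM in untreated cells. All 3 LPS libraries lay above the untreated ones, higher by 1.19 on the log2 scale (SE 0.258, adjusted p = 0.0105). Itga6, the laminin-binding chain, had 330, 289 and 304 CPM in LPS cells, against 27.6, 142 and 78.5 CPM in untreated cells. The untreated libraries spread widely and stayed below those of LPS, which were higher by 1.90 on the log2 scale (SE 0.466, adjusted p = 0.0164). The call for Itga6 was lost without LPS replicate 1 (1.84 on the log2 scale, adjusted p = 0.0501), and the value was 2.54 without untreated replicate 2.

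The 9 tested T cell markers all rose, and summed to 990 to 1230 CPM in LPS libraries, against 120 to 568 CPM in untreated libraries. Untreated replicate 1 had both the lowest sum of these markers and the lowest Itga4 and Itga6. It also had the lowest untreated sums of NK cell markers (5.84 CPM) and endothelial markers (54.8 CPM). T cells also carry Itga4, Itgb7, Itga6 and Selplg. None of the 9 T cell markers was at 0 counts in either group, and their part in the higher Itga4 and Itga6 was not tested.

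The other 4 members did not pass the test. Itgb1, the partner of Itga4, Itga5 and Itga6, had 249, 297 and 321 CPM in LPS cells, against 380, 354 and 467 CPM in untreated cells. Its groups did not overlap, yet its log2 fold change of -0.47 had an adjusted p of 0.0602. Itga5, the fibronectin-binding chain, had 106, 69.7 and 77.6 CPM in LPS cells, against 123, 138 and 94.1 CPM in untreated cells. The groups overlapped, and the log2 fold change was -0.49 (adjusted p = 0.0891). Selplg had 382, 316 and 306 CPM in LPS cells, against 204, 232 and 274 CPM in untreated cells. All LPS libraries were above the untreated ones, with a log2 fold change of 0.50 (adjusted p = 0.0982). Itgb7 had 265, 254 and 198 CPM in LPS cells, against 206, 246 and 238 CPM in untreated cells. These ranges overlapped fully, with a log2 fold change of 0.06 (95% interval -0.35 to 0.46, adjusted p = 0.831).

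**Figure D1:**
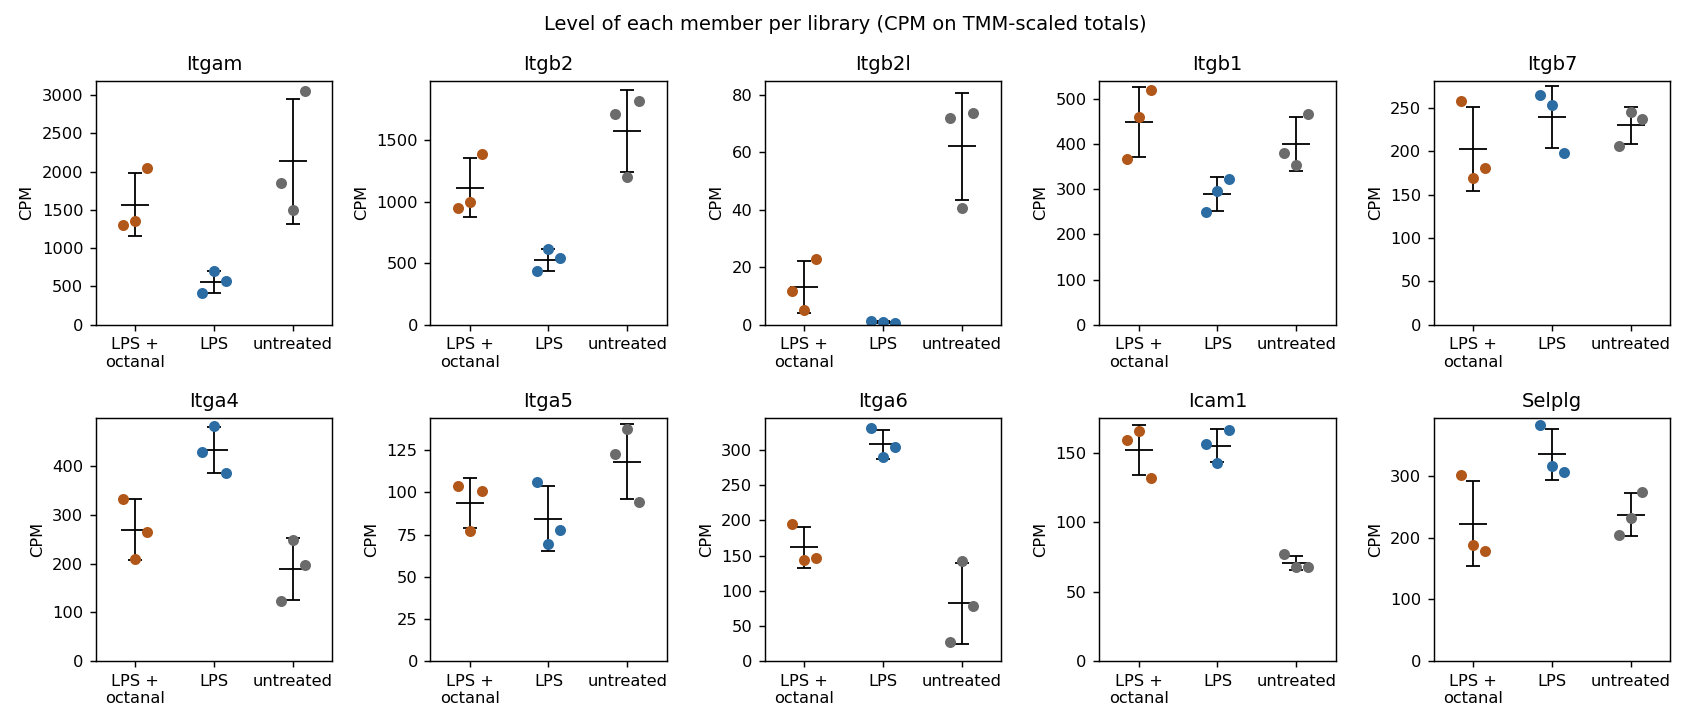
Level of each of the 10 members in every library, in CPM on an axis that differs between panels, with points for libraries and bars for the mean and SD of 3 libraries. The LPS libraries hold the lowest values of Itgam, Itgb2 and Itgb2l, and the 2 groups given LPS, with and without octanal, lie above untreated cells for Icam1.

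LPS with octanal cells were next compared with LPS cells. The Mac-1 genes and Itgb2l had higher values in LPS with octanal cells than in LPS cells, while Itga4, Itga6 and Selplg had lower values. None of the 10 members passed the edgeR test, and neither did any of the 15447 genes (0%). The smallest adjusted p, 0.0508, was held by 47 genes, among them Itgb2l. At an unadjusted p under 0.05 there were 6 members, 4 higher and 2 lower, against 3450 genes (22.3%). DESeq2 called 4 members (Itgam, Itgb2, Itgb2l and Itgb1) and 1792 genes (11.6%), and limma-voom called 0 of both. Libraries of these groups did not overlap for 7 members, 4 higher and 3 lower, against 38.1% of all genes (18.3% higher and 19.9% lower). The median log2 fold change was 0.06 over the members and -0.05 over all genes.

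Itgb2l had 11.8, 4.97 and 22.7 CPM in LPS with octanal cells, from 410, 185 and 690 counts, against 1.13, 1.00 and 0.636 CPM in LPS cells. All 3 libraries with octanal were above all 3 without, although they differed among themselves. The log2 fold change was 3.82 (95% interval 2.56 to 5.09, adjusted p = 0.0508), and 10 of 18 alternatives gave a call (adjusted p of 8.33e-11 to 0.21).

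Itgam had 1298, 1361 and 2045 CPM in LPS with octanal cells, against 415, 699 and 566 CPM in LPS cells. The groups were apart, with a log2 fold change of 1.49 (95% interval 0.76 to 2.21, adjusted p = 0.0619). Itgb2 had 951, 996 and 1387 CPM in LPS with octanal cells, against 435, 613 and 539 CPM in LPS cells. Here too the groups were apart, with a log2 fold change of 1.07 (95% interval 0.56 to 1.58, adjusted p = 0.0602). Both genes were called in 6 of 18 alternatives, with adjusted p of 0.000184 to 0.235 for Itgam and 0.000215 to 0.227 for Itgb2. Itgb1 had 366, 459 and 519 CPM in LPS with octanal cells, against 249, 297 and 321 CPM in LPS cells. Its log2 fold change was 0.63 (95% interval 0.25 to 1.02, adjusted p = 0.0875), with no overlap of the groups.

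The neutrophil markers summed to 6109 to 13730 CPM in LPS with octanal libraries, against 1895 to 2347 CPM in LPS libraries, and all 14 had positive log2 fold changes with 0 called. LPS with octanal replicate 3 had the highest neutrophil and classical monocyte sums of its group and the highest Itgam, Itgb2, Itgb2l and Itgb1. The classical monocyte markers summed to 4443 to 6866 CPM in LPS with octanal libraries, against 1721 to 2903 CPM in LPS libraries, and 6 of the 8 had positive log2 fold changes with 0 called. Most of that sum was Lyz2, at 3395 CPM in LPS with octanal and 1433 CPM in LPS cells, whereas Ly6c2 (-1.76) and Fcgr1 (-0.37) had negative log2 fold changes and Ccr2 was at 0.03. The part of either in the higher values of the beta 2 genes was not tested.

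Itga4 had 333, 209 and 265 CPM in LPS with octanal cells, against 428, 480 and 386 CPM in LPS cells. Its groups did not overlap, and its log2 fold change was -0.68 (95% interval -1.26 to -0.10, adjusted p = 0.167). Itga6 had 195, 144 and 146 CPM in LPS with octanal cells, against 330, 289 and 304 CPM in LPS cells. The gap between the groups was wide, yet the log2 fold change of -0.93 had a 95% interval of -1.96 to 0.10 (adjusted p = 0.261) in a fit that shares its spread with the scattered untreated libraries. With the 6 libraries of these groups alone, Itga6 was called (adjusted p = 0.0328), in a fit that called 8.02% of all genes.

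Selplg had 302, 188 and 178 CPM in LPS with octanal cells, against 382, 316 and 306 CPM in LPS cells. It too was lower in every octanal library, with a log2 fold change of -0.59 (95% interval -1.07 to -0.11, adjusted p = 0.155). The T cell markers summed to 605 to 902 CPM in LPS with octanal libraries, against 990 to 1230 CPM in LPS libraries, and all 9 had negative log2 fold changes with 0 called. LPS with octanal replicate 1 had the highest T cell sum of its group and the highest Itga4, Itga6, Itgb7 and Selplg. Dendritic cell markers (146 CPM, against 65.0 and 66.1 CPM in replicates 2 and 3) were also highest there. So were platelet markers (113 CPM, against 29.5 and 50.7 CPM) and those of NK, plasma, erythroid and endothelial cells, but not those of B cells. The part of any of these markers in the lower values was not tested. The 8 B cell markers summed to 80.4 to 108 CPM in LPS with octanal, 143 to 193 CPM in LPS and 99.4 to 338 CPM in untreated libraries.

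**Figure D2:**
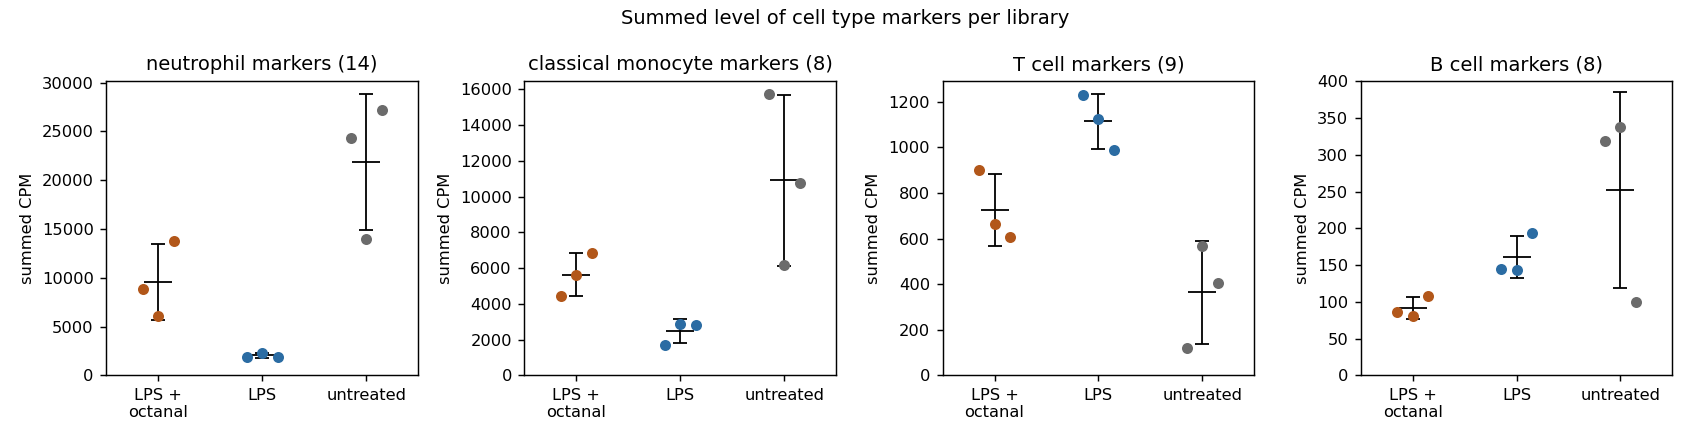
Summed CPM of neutrophil, classical monocyte, T cell and B cell markers in every library, with points for libraries and bars for the mean and SD of 3 libraries. Neutrophil sums are 6109 to 13730 with octanal, 1895 to 2347 with LPS alone and 13997 to 27237 in untreated libraries, and T cell sums are highest in LPS libraries.

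The remaining members had overlapping libraries. Icam1 had 159, 166 and 132 CPM in LPS with octanal cells, against 156, 143 and 166 CPM in LPS cells, a log2 fold change of -0.03 with a 95% interval of -0.28 to 0.23 (adjusted p = 0.899). Itga5 had 104, 76.9 and 101 CPM in LPS with octanal cells, against 106, 69.7 and 77.6 CPM in LPS cells (log2 fold change 0.15, adjusted p = 0.674). Itgb7 had 258, 169 and 181 CPM in LPS with octanal cells, against 265, 254 and 198 CPM in LPS cells (log2 fold change -0.24, adjusted p = 0.45).

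The last comparison set LPS with octanal cells against untreated cells. In cells given both agents Icam1 was higher and Itgb2l lower than in untreated cells. These 2 of 10 members passed the edgeR test, 1 higher and 1 lower, where 8.67% of all tested genes passed, 2.63% higher and 6.03% lower. The median log2 fold change was -0.13 over the members and -0.01 over all genes. Groups did not overlap for 3 members, Icam1 and Itga6 above and Itgb2l below, against 29.8% of all genes (13.5% higher and 16.3% lower). This comparison shares its libraries with both others.

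Icam1 averaged 152 ± 18.0 CPM in LPS with octanal cells and 70.9 ± 5.27 CPM in untreated cells (SD, n = 3 each). The log2 fold change was 1.10 (SE 0.114, adjusted p = 0.00196), and Icam1 was called in 18 of 18 alternatives. Itgb2l averaged 13.2 ± 8.95 CPM in LPS with octanal cells and 62.1 ± 18.7 CPM in untreated cells (SD, n = 3 each). The fitted change of -2.24 on the log2 scale (SE 0.491, adjusted p = 0.0284) went with neutrophil marker sums of 6109 to 13730 CPM in LPS with octanal, against 13997 to 27237 CPM in untreated libraries. Of the 14 neutrophil markers 5 were called lower and 0 higher, and Ly6g (0.57) and Lcn2 (0.31) had positive log2 fold changes. The part of the neutrophil markers was not tested.

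The call for Itgb2l was lost when only the 6 libraries of these groups were fitted (adjusted p = 0.0726). It was also lost without untreated replicate 1 (adjusted p = 0.0755) or 3 (0.0609) and without LPS with octanal replicate 1 (0.0792) or 2 (0.056). Without LPS with octanal replicate 3, the library with the highest Itgb2l of its group, the log2 fold change was -2.89.

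Mac-1 genes did not pass the test here. Itgam averaged 1568 ± 414 CPM in LPS with octanal cells and 2135 ± 814 CPM in untreated cells (SD, n = 3 each), a log2 fold change of -0.45 with a 95% interval of -1.15 to 0.26 (adjusted p = 0.383). For Itgb2 the means were 1111 ± 240 CPM in LPS with octanal cells and 1576 ± 331 CPM in untreated cells, and the log2 fold change of -0.50 had an adjusted p of 0.184. Itga6 averaged 162 ± 28.8 CPM in LPS with octanal cells and 82.7 ± 57.4 CPM in untreated cells. Its lowest octanal library, at 144 CPM, barely exceeded the highest untreated one, at 142 CPM, and the log2 fold change was 0.97 (adjusted p = 0.206). Itga4 averaged 269 ± 62.2 CPM in LPS with octanal cells and 189 ± 63.1 CPM in untreated cells (log2 fold change 0.51, adjusted p = 0.23). Log2 fold changes of Itgb1, Itgb7, Itga5 and Selplg were 0.16, -0.18, -0.34 and -0.09, with adjusted p of 0.557, 0.54, 0.3 and 0.818.

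**Figure D3:**
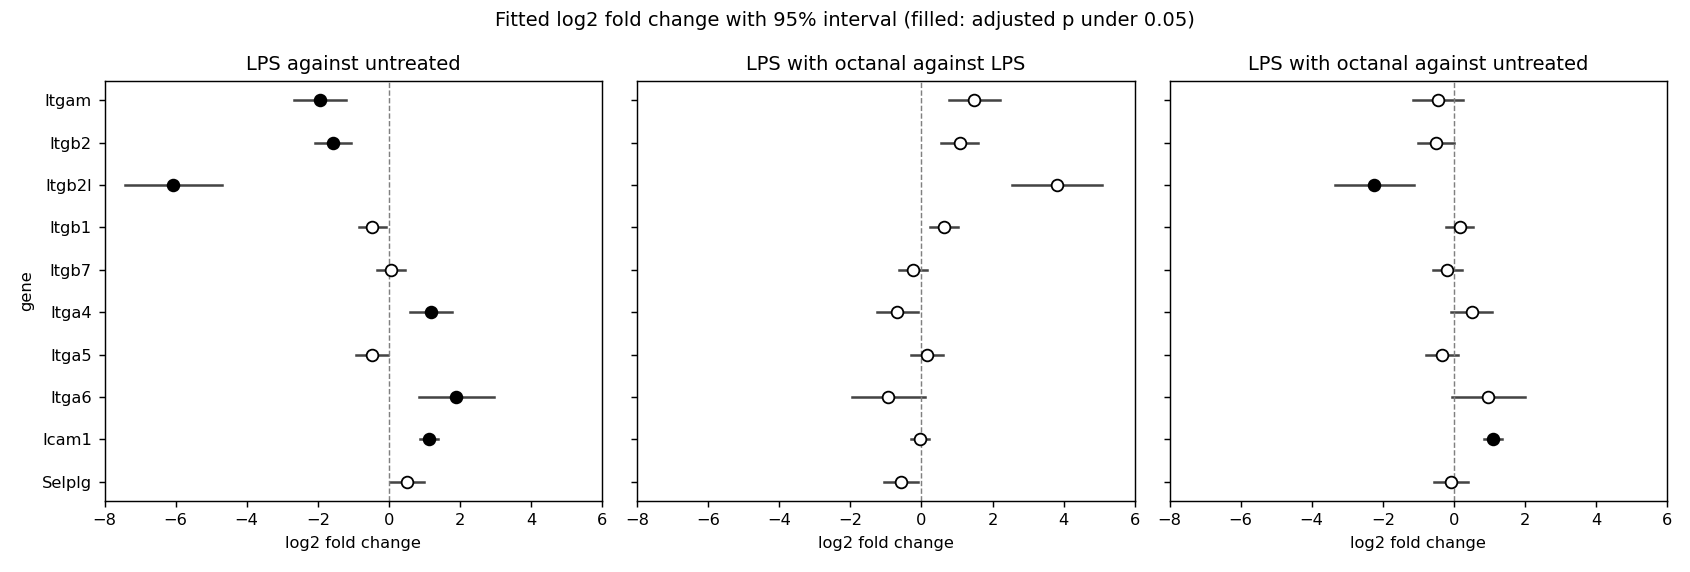
Log2 fold change of each member with its 95% interval from the edgeR fit, in 1 panel per comparison, with calls marked. Itgb2l has the largest values among the members, at -6.06 in LPS against untreated and 3.82 in LPS with octanal against LPS, and Icam1 lies near 1.1 in both comparisons with untreated cells.

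Levels of different genes were compared per length, on the FPKM values of the authors. In LPS with octanal cells Itgb2 led with a mean of 345 FPKM, ahead of Itgam at 311 FPKM, Selplg at 113 FPKM and Itgb1 at 108 FPKM. In LPS cells Selplg at 179 FPKM and Itgb2 at 176 FPKM came first, followed by Itgam at 119 FPKM and Itgb7 at 90.5 FPKM. In untreated cells Itgb2 at 483 FPKM and Itgam at 417 FPKM were ahead of Selplg at 118 FPKM and Itgb1 at 95.9 FPKM. Neighbours such as Selplg and Itgb2 in LPS cells, or Selplg and Itgb1 in LPS with octanal cells, lay within each other's spread between replicates. Itgb2l was the lowest of the members in both groups given LPS, at 4.43 FPKM with octanal and 0.327 FPKM without, and had 20.6 FPKM in untreated cells.

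The make-up of the beta chains was described as shares of their summed FPKM. Itgb2 took 63.8 ± 3.90% in LPS with octanal, 49.6 ± 3.99% in LPS and 68.5 ± 3.62% in untreated libraries (SD, n = 3 each). Itgb7 took 13.2 ± 4.27% in LPS with octanal, 25.8 ± 4.11% in LPS and 11.4 ± 2.81% in untreated libraries, and so had its largest share in LPS libraries although its own level passed no test. Itgb2l took 0.789% in LPS with octanal, 0.0939% in LPS and 2.89% in untreated libraries.

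Among the alpha chains that pair with Itgb2, Itgam took 86.5 ± 1.84% of the FPKM in LPS with octanal, 74.1 ± 4.11% in LPS and 88.1 ± 2.98% in untreated libraries (SD, n = 3 each). In single libraries that share was 85.4, 85.4 and 88.6% with octanal, 70.1, 78.3 and 73.8% with LPS alone and 86.6, 86.1 and 91.5% in untreated cells. The LPS libraries were thus the lowest, without overlap with either other group. Itgal, the alpha chain of LFA-1, made up most of the rest, at 12.8 ± 1.77% with octanal, 24.1 ± 4.02% with LPS alone and 10.4 ± 2.33% in untreated cells. Its own level was nevertheless lowest with LPS alone, at 37.7 FPKM, against 44.9 FPKM with octanal and 46.9 FPKM in untreated cells.

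Among alpha chains that pair with Itgb1, Itga6 took 38.7 ± 2.73% in LPS with octanal, 48.4 ± 2.25% in LPS and 21.4 ± 9.75% in untreated libraries (SD, n = 3 each). Itga5 took 21.7 ± 1.66% in LPS with octanal, 12.7 ± 2.25% in LPS and 33.6 ± 9.85% in untreated libraries. For Itga4 the mean share was 27.6% in LPS with octanal, 29.4% in LPS and 23.0% in untreated libraries. Itga6 therefore held the largest share in each LPS and LPS with octanal library, and Itga5 the largest mean share in untreated cells. Itga4 and Itga6 also pair with beta chains other than Itgb1, so these shares say nothing of which pairs formed.

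**Figure D4:**
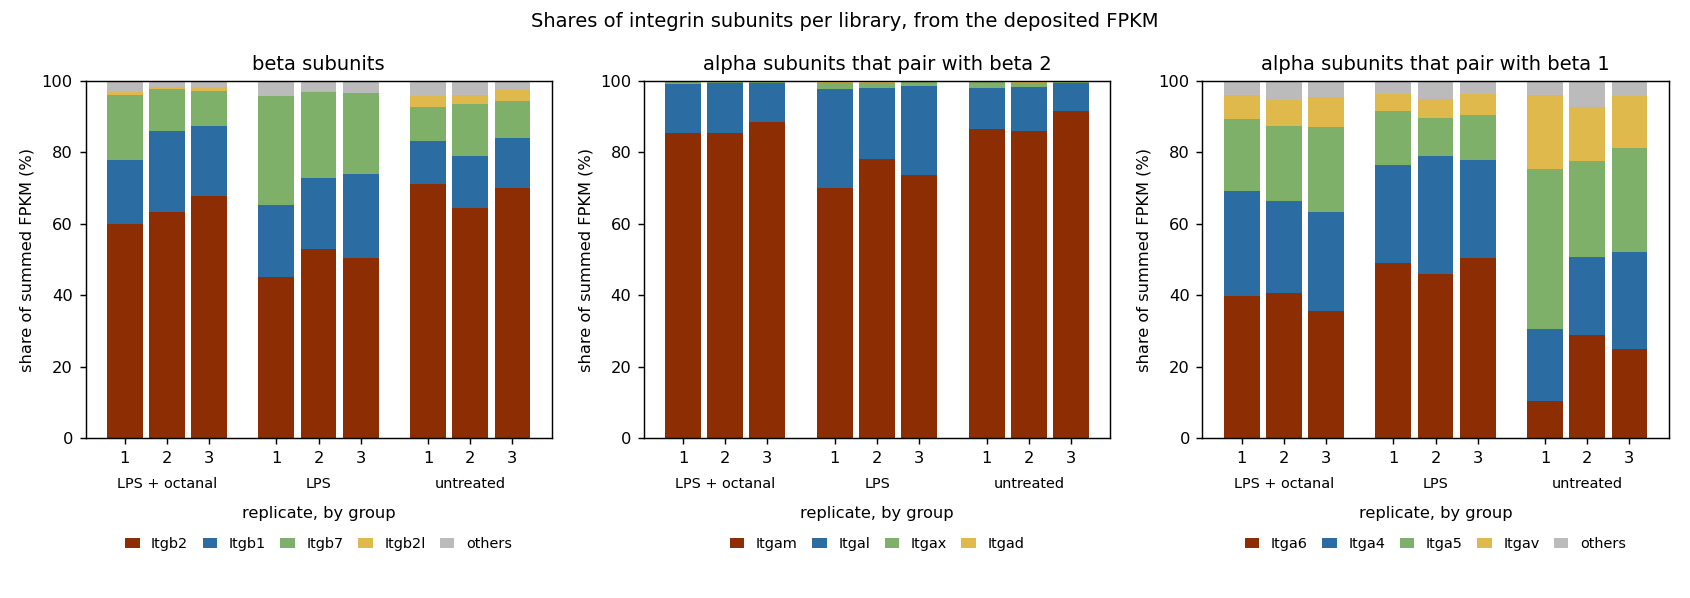
Share of each subunit in the summed FPKM of the beta chains, of the alpha chains that pair with Itgb2 and of those that pair with Itgb1, as stacked bars from 0 to 100% for every library. Itgb2 and Itgam take their lowest shares in the 3 LPS libraries, where the shares of Itgb7 and Itgal are highest.

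Several members have relatives or neighbours whose reads could be mixed with theirs. The proteins of Itgb2l and Itgb2, as translated from GENCODE M21 transcripts, had 60.5% identity over 721 aligned residues, and their transcripts shared no exact run longer than 25 bases. For Itgb2 and Itgb7 the identity was 48.7% and the longest run 26 bases. Itgam was 54.6% identical to Itgax and to Itgad, with runs of at most 16 bases. Gm49368, a predicted gene on the same strand, shares 3450 exon bases with Itgam. Its counts were 1.81 to 3.15% of those of Itgam in LPS with octanal, 2.79 to 4.74% in LPS and 2.15 to 3.89% in untreated libraries. Cerkl shares 1124 exon bases with Itga4 on the opposite strand, and its counts were at most 0.124% of those of Itga4. Gm47079, antisense to Icam1 over 511 bases, was not analysed here. The use of strand in counting is not given in the sources used here.

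The genes most like 4 of the members were found by the root mean square difference in log2 CPM, centred over the 9 libraries, among 9139 genes. Nearest to Itgam were Mcemp1 (0.11), Pygl (0.112) and Apobr (0.114), where the median gene was at 0.919. Those nearest to Itgb2l were Ngp (0.384), Ifitm6 (0.405) and Chil3 (0.446), with the median gene at 2.51. Ngp stands on the list of neutrophil markers and Chil3 on that of classical monocytes. For Icam1 they were Nfkb2 (0.168), Mllt6 (0.188) and Adora2a (0.197), with the median gene at 0.572. Itgb7, which barely varied, was nearest to Rusc1 (0.111), D3Ertd254e (0.111) and Mtfr1 (0.114), with the median gene at 0.34. These distances describe 9 libraries in 3 groups and carry no test.

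Other genes of the adhesion pathway were counted in 8 lists, to be read against all tested genes, of which 15.2% rose and 17.6% fell in LPS against untreated cells, with a median of 0.01 on the log2 scale. Of 5 further leukocyte alpha chains, 3 fell in LPS against untreated cells and 0 rose (list median -0.77). Itgal had 184 ± 10.1 CPM in LPS cells and 247 ± 27.7 CPM in untreated cells (log2 fold change -0.43, adjusted p = 0.021). Itgax, the CD11c chain, had 8.28 CPM in LPS cells and 21.5 CPM in untreated cells (-1.38, adjusted p = 0.014), and Itga9 fell by 1.70 on the log2 scale. Of 8 tested alpha chains of matrix and platelet integrins, 2 fell and 0 rose (list median 0.20), the fallers including the vitronectin receptor chain Itgav (-0.78, adjusted p = 0.0142). Of 4 tested further beta chains, Itgb5 fell (-2.86, adjusted p = 0.001) and Itgb8 rose (1.69, adjusted p = 0.0172).

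Among 13 counter-receptors and matrix ligands 2 were higher and 2 lower in LPS against untreated cells (list median -0.11), close to the 15.2% higher and 17.6% lower of all genes. Icam2 (1.19, adjusted p = 0.0066) and Pecam1 (0.94, adjusted p = 0.0188), both adhesion molecules of endothelium and leukocytes, rose on the log2 scale. The matrix proteins fibronectin, Fn1 (-2.09, adjusted p = 0.0308), and osteopontin, Spp1 (-2.24, adjusted p = 0.0047), fell. Of 9 selectins and selectin ligands, 2 rose and 3 fell (list median -0.72). Spn, the sialoprotein CD43, rose by 1.10 on the log2 scale (adjusted p = 0.0068), while the hyaluronan receptor Cd44 fell by 1.42 (adjusted p = 0.0012) and Cd24a by 1.55 (adjusted p = 0.044).

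Selplg binds selectins only once its sugars are finished, and of 11 enzymes and partners of that step 5 fell and 0 rose in LPS against untreated cells (list median -0.42), where 17.6% of all genes fell and 15.2% rose. Gcnt1, the enzyme that starts core branches on the sugars of Selplg, had 8.11 ± 2.69 CPM in LPS cells and 172 ± 89.4 CPM in untreated cells (log2 fold change -4.41, adjusted p = 0.0012). The galactosyltransferase B4galt1 fell by 0.56, the sialyltransferase St3gal4 by 0.42 and the chaperone C1galt1c1 by 0.58 on the log2 scale. Neutrophil markers had a median of -4.38 in this comparison and classical monocyte markers one of -2.75. Their part in the lower values of these genes was not tested. Gcnt1 was also lower in LPS with octanal, at 20.7 ± 13.1 CPM, than in untreated cells (log2 fold change -3.06, adjusted p = 0.0115), as was B4galt1 (-0.65, adjusted p = 0.0154).

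A list of 19 regulators of integrin activation held genes that act for it and genes that act against it, such as Sipa1. Of these 19, 4 were higher and 6 lower in LPS against untreated cells (list median -0.19). Among all genes 15.2% were higher and 17.6% lower. The adaptor Fyb (ADAP) had 266 ± 6.1 CPM in LPS cells and 140 ± 13 CPM in untreated cells (log2 fold change 0.92, adjusted p = 0.0007), and its T cell partner Skap1 rose by 2.28. Rasgrp2, which activates the GTPase Rap1, rose by 0.87 and Cyth1 by 0.38, whereas Cyth4, another cytohesin, fell by 1.13 on the log2 scale (adjusted p = 0.0015). Talin, Tln1 (-0.55, adjusted p = 0.0139), and kindlin-3, Fermt3 (-0.38, adjusted p = 0.0272), which bind the beta chain tail and switch integrins on, also fell, as did Skap2 (-0.83), Sipa1 (-0.56) and Flna (-0.51). T cell markers, which summed to 990 to 1230 CPM in LPS and 120 to 568 CPM in untreated libraries, moved with the higher Skap1, Fyb and Spn. In LPS with octanal against LPS cells, Skap1 (-0.68) and Spn (-0.87) had negative log2 fold changes, as did all 9 T cell markers. Fyb was at 0.36 there, and none of these genes was called. The part of the T cell markers was not tested.

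Signalling and adapter proteins behind an engaged integrin were lower or did not pass, with 12 of 20 lower and 0 higher in LPS against untreated cells, where 17.6% of all genes were lower and 15.2% higher, and with a list median of -0.56 on the log2 scale. Zyxin, Zyx, a protein of focal adhesions, had 94 ± 4.76 CPM in LPS cells and 226 ± 40.9 CPM in untreated cells (-1.27, adjusted p = 0.001). The exchange factor Vav3 fell by 0.98 (adjusted p = 0.0015), the urokinase receptor Plaur by 2.21 (adjusted p = 0.0018) and the phospholipase Plcg2 by 1.27 (adjusted p = 0.0042). The neutrophil markers had a median of -4.38 on the same scale and the classical monocyte markers one of -2.75, and their part in the lower signalling genes was not tested.

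Between LPS with octanal and LPS cells, 0 genes of the 8 lists were called, as for all genes. For the signalling list 15 of 20 log2 fold changes were positive, with a median of 0.61, beside a median of -0.05 over all genes. In that comparison the neutrophil markers had a median of 1.92, with 14 of 14 positive, and the classical monocyte markers one of 0.76, and their part in the list's values was not tested. In LPS with octanal against untreated cells 2 leukocyte alpha chains, Itgav, Itgb5 and Fn1 were lower, and Icam2 was higher (0.90, adjusted p = 0.0446). Fyb was higher (1.28), Cyth4 lower (-0.57), and of the signalling list the adaptor Lcp2 (0.89) was higher while Zyx (-1.13) and Cd151 (-0.65) were lower. None of the 9 selectins and selectin ligands was called by edgeR in that comparison. These calls are to be read against all tested genes, of which 8.67% were called there, 2.63% higher and 6.03% lower.

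**Figure D5:**
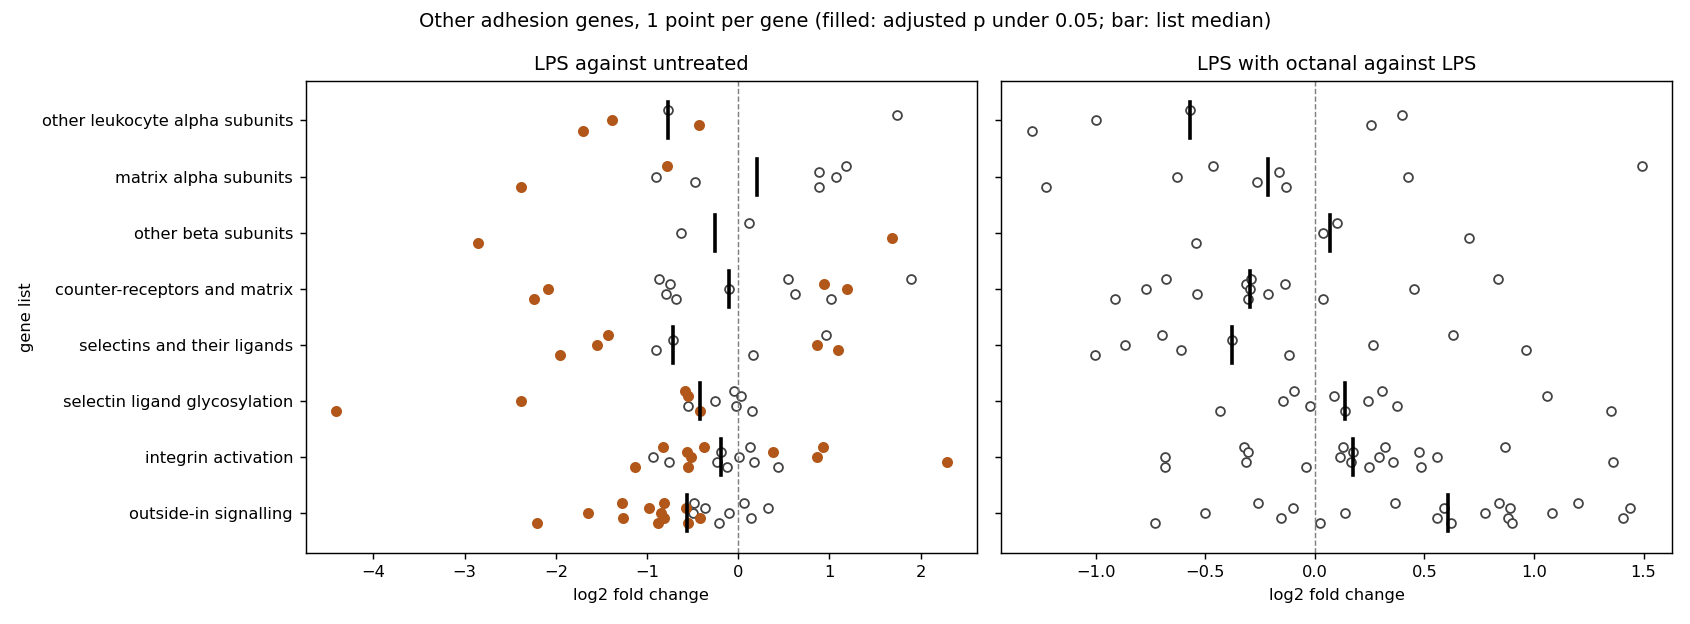
Log2 fold change of every tested gene in the 8 adhesion lists, as points with the median of each list as a bar and called genes filled, for LPS against untreated and for LPS with octanal against LPS on separate scales. The signalling list has a median of -0.56 in LPS against untreated and of 0.61 in LPS with octanal against LPS, where 0 genes were called.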

How the data were processed

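The authors deposited a whole-number count per gene and library, without normalization, and FPKM values (fragments scaled per length and depth), per the file headers. Per the submitters' processing notes the reads were placed on GRCm38; no source used here gives the aligner, the counter or the use of strand. Of 26770 gene rows, 22035 carried Ensembl identifiers (22021 matched GENCODE M21) and 4735 were unannotated loci named NewGene; 10 lines of text without values were left out.

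The test was run with edgeR 4.0.16 in R 4.3.3, using TMM factors (0.923 to 1.07), filterByExpr by group, which left 15447 genes, and the quasi-likelihood test in 1 model of the 9 libraries with a term for each group. Genes were called at a Benjamini-Hochberg adjusted p under 0.05 over all tested genes, and adjusted p-values are those of edgeR unless another tool is named. CPM are on TMM-scaled totals, given as mean ± SD over 3 libraries; the SE is the log2 fold change divided by the root of the F statistic, and 95% intervals use the t distribution. Shares and levels between genes used the deposited FPKM.

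The members and lists were chosen with earlier results of these data known. All 10 members were named. From each adhesion list up to 4 genes called in LPS against untreated with the lowest p and at least 10 CPM in the higher group were named, with those that moved against the rest; Tln1, Fermt3, Skap2, Sipa1, Flna and the genes named in LPS with octanal against untreated were chosen after their values were seen. Some genes that this rule names are not reported here. In all 18 alternatives were run, with DESeq2 1.42.0 and limma 3.58.1 among the tools. The fit was tested on simulated counts. No 2 libraries held the same values: between replicates chi-square per degree of freedom was 42.9 to 142. Precision is limited by 3 libraries per group.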

Additional observations from a re-analysis of the deposited data

How the results depend on the processing

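Called members of LPS against untreated numbered 6 to 8 under all 18 alternatives. Itgam, Itgb2, Itgb2l, Itga4 and Icam1 were called in each, and Itga6 in 17. In LPS with octanal against LPS the 0 members and 0 genes called became 3 and 279 without the filter, 3 and 323 with a filter at 10 CPM, 4 and 1792 with DESeq2, 4 and 1239 with the 6 libraries of these groups, 1 and 118 without NewGene loci, and 1 and 155 with limma-trend on log2 FPKM (pseudocount 0.1, mean of at least 1). Leaving out a library gave 0 to 5 members and 0 to 663 genes, with calls without untreated replicate 1 (1 member), untreated replicate 2 (3), LPS with octanal replicate 1 (5) or LPS with octanal replicate 2 (1). In LPS with octanal against untreated the 6 libraries gave 1 member and 421 genes and DESeq2 gave 2810 genes; leaving out a library gave 1 to 3 members and 289 to 2187 genes, the fewest without LPS with octanal replicate 2. For LPS against untreated leaving out a library gave 2484 to 5711 genes, the fewest without LPS replicate 1 (3105 without LPS replicate 3). Small log2 fold changes that turned were Icam1 in LPS with octanal against LPS (0.0051 with DESeq2 size factors, 0.0052 with DESeq2, 0.00041 with the 6 libraries, -0.0941 to 0.0653 leaving out a library), Itgb7 in LPS against untreated (-0.0477 to 0.175) and Selplg in LPS with octanal against untreated (-0.37 to 0.0526). The causes were not tested. On log2 FPKM the median gene of LPS against untreated moved by 0.114 relative to the edgeR fit, and 60.5% of calls were higher, beside 46.4% on counts; members called were 3 higher and 3 lower in both.

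With the replicate number as a block, 7, 0 and 2 members and 4257, 0 and 923 genes were called in LPS against untreated, LPS with octanal against LPS and LPS with octanal against untreated; Itgb1 was the member added (adjusted p = 0.03). The numbers were not taken to pair the samples: deviations of same-numbered libraries correlated at -0.0898 to 0.179, over 0.1 in 1 of 9 pairs, and 3 of 18 were highest with their own number. A group left with 2 libraries took its spread from the shared fit. With 23 to 44 counts of Itgb2l in LPS libraries, its fold changes rest on few reads there.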
